A study of Homo sapiens with 52 samples.

Results

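Neurite fractions were compared with soma fractions of i3Neurons that carried a non-targeting guide RNA, the controls of a TDP-43 knockdown experiment. The 10 libraries, 5 per fraction (samples 1, 2, 4, 5 and 6 of each), were chosen by their sample titles out of 52 in the series. i3Neurons are human neurons made from WTC11, an induced pluripotent stem cell line and the source of every library, by switching on a neurogenin transgene with doxycycline. The neurons of both groups had the same treatment: guide transduction and selection as stem cells, replating on day 3 of induction onto coated inserts with 1 µm pores, and harvest on day 17. The guide in these cells matches no human gene, so the CRISPR interference machinery, a catalytically dead Cas9 fused to a repressor, has no intended target. The other cells of the series were hnRNPA1 or TDP-43 knockdown neurons, non-targeting controls of the hnRNPA1 experiment (6 libraries per fraction) and untreated neurons (4 per fraction). The line descends from 1 donor, the sample numbers are not stated to be separate cultures, and p-values therefore measure the spread between these samples only.

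A neuron makes its RNA in the nucleus, and only part of it travels into axons and dendrites. Motor proteins carry granules of messenger RNA and RNA-binding proteins along microtubules, and ribosomes in the neurite then translate them locally. Messages for ribosomal proteins and for mitochondrial enzymes are known cargo of axons, while precursor RNAs and small nuclear and nucleolar RNAs act in the nucleus. In a Boyden chamber the pores admit neurites and hold back cell bodies, so the neurite fraction is the material under the membrane, and the soma fraction holds the cell bodies with the neurites beside them.

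The neurite libraries held 9169154 to 12750856 counts and the soma libraries 15719512 to 20310013, with 19330 to 23441 genes at 5 or more counts in neurite libraries and 24410 to 26900 in soma libraries. All 16 neuron markers were detected in both fractions, with a summed level of 10115 to 12060 CPM in neurites and 9188 to 9955 CPM in soma. CPM are counts per 1000000 after TMM scaling, a step that lines up libraries of different composition. TARDBP, the gene of TDP-43, averaged 117 ± 7.26 CPM in neurites and 111 ± 4.59 CPM in soma (SD, n = 5 each), a log2 ratio of 0.08 ± 0.06 (SE) that did not pass the test (edgeR adjusted p = 0.248) and was -0.53 with library sizes in place of TMM factors. Neurite samples 4 and 5 stood apart from the other neurite samples: 29.5% and 22.0% of their counts fell on the 7SL genes, against 11.1 to 14.04% in neurite samples 1, 2 and 6. In bulk fractions, a lower number of neurites per well and less RNA per neurite cannot be told apart.

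Of 22014 genes tested, 5314 (24.1%) were higher in neurites and 4918 (22.3%) were lower, at an adjusted p under 0.05 in edgeR's quasi-likelihood test. All 5 neurite libraries lay above all 5 soma libraries for 3636 genes (16.5%), and below them for 3201 (14.5%). The median log2 ratio of all genes was -0.03. With library sizes in place of TMM factors it was -0.63, and 1891 genes were then higher and 14536 lower, so that 11.5% of the calls were higher, against 51.9% with TMM factors. The log2 ratios below are neurites over soma with TMM factors, each with its standard error, and are relative to a typical gene. When neurite samples 4 and 5 were left out together, 5242 genes were higher and 4643 lower.

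Ribosomal protein messages were among the most one-sided groups. Messages of this family share a start made of pyrimidines, the 5′ terminal oligopyrimidine tract, through which their translation is controlled. The windows below show the 30 bases around the RefSeq start (10 bases before it and 20 from it on, GRCh38.p14, transcribed strand), with the longest run of C and T in the window in capitals. They belong to those genes with a single RefSeq start among the 4 highest ratios of ribosomal protein genes, the 4 highest of translation factors and the 4 lowest of cholesterol synthesis genes, and let the start of a neurite-high group be set beside that of a neurite-low one.
RPL39 (chrX:119791611-119791640, minus strand): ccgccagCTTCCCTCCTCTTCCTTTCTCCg
RPL12 (chr9:127451387-127451416, minus strand): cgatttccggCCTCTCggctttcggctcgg
RPS24 (chr10:78033853-78033882, plus strand): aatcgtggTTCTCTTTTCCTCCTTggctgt
TPT1 (chr13:45341164-45341193, minus strand): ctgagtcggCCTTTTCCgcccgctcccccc
NACA (chr12:56725280-56725309, minus strand): ctcgctcggTCTTTCTgccgccatcttggt
EEF1A1 (chr6:73521013-73521042, minus strand): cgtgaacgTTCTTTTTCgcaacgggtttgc
MVD (chr16:88663072-88663101, minus strand): gggtcactgcgcggtgggaccatggCCTCg
HSD17B7 (chr1:162790692-162790721, plus strand): gggcgtggccgtaCTCTgattggtgacggg
LSS (chr21:46228755-46228784, minus strand): ggcagCTggcagtgggcggcgtagagcact

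A run of at least 8 pyrimidines (C or T, transcribed strand only) lay in this window of 54 of the 63 ribosomal protein genes that had a RefSeq entry (85.7%), against 4215 of 27305 genes with an entry (15.4%). Among translation factors 14 of 35 genes had the run (40.0%), and among cholesterol synthesis genes 1 of 15 (6.67%). RPL12, with a run of 6, and NACA, with a run of 7, did not reach that length. Outside the ribosomal protein genes the run did not mark genes that were higher in neurites: it was present in 557 of 3088 protein-coding genes called higher (18.04%), 577 of 3244 called lower (17.8%) and 844 of 5135 not called (16.4%). The run was defined with results of these data known, and the shares are a description.

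Of the 79 cytosolic ribosomal protein genes, 76 were higher in neurites and none was lower, and 76 had no overlap between the fractions. RPL17, RPS10 and RPL36A were not called. The median log2 ratio of the list was 1.55, and 0.90 with library sizes. RPL39, a small protein of the large subunit, measured 107, 101, 219, 194 and 118 CPM in neurite samples 1, 2, 4, 5 and 6, against 22.7, 21.6, 28.02, 20.4 and 23.9 CPM in the soma samples of those numbers. Neurite samples 4 and 5 were the highest, and the lowest neurite value lay more than 3 times above the highest soma value. Its log2 ratio was 2.65 ± 0.16 (edgeR adjusted p = 1.11e-13). RPS24, of the small subunit, measured 306, 293, 398, 394 and 336 CPM in neurites, against 68.6, 66.3, 73.6, 62.5 and 67.0 CPM in soma, a log2 ratio of 2.35 ± 0.08. RPL12 and RPL32 had ratios of 2.61 ± 0.11 and 2.39 ± 0.15. As many processed copies of these genes lie in the genome, the counts of single members are uncertain. Without neurite samples 4 and 5, 76 of the 79 genes were again higher.

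Translation factors showed the same direction in a smaller share of genes. Of 43 tested, 25 were higher and 4 lower, with a median log2 ratio of 0.24 (-0.38 with library sizes, where the median of all genes was -0.63). The highest were TPT1, a translationally controlled message, at 1.62 ± 0.08, NACA, a chaperone of nascent chains, at 1.603 ± 0.08, EEF1A1 at 1.36 ± 0.09 and EEF1B2 at 1.212 ± 0.07. EEF1A1, which delivers aminoacyl-tRNA to the ribosome, measured 2089, 2178, 2640, 2570 and 2468 CPM in neurites, against 867, 973, 1085, 835 and 898 CPM in soma. RACK1, a scaffold on the small subunit, was higher by 1.07 ± 0.07. EIF6, which keeps the large subunit from joining, was lower at -0.30 ± 0.09, and EIF5B, which joins the subunits, was lower at -0.20 ± 0.07. The EIF5B call was lost without neurite sample 4, without neurite sample 5, without both and without soma sample 1.

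**Figure D1:**
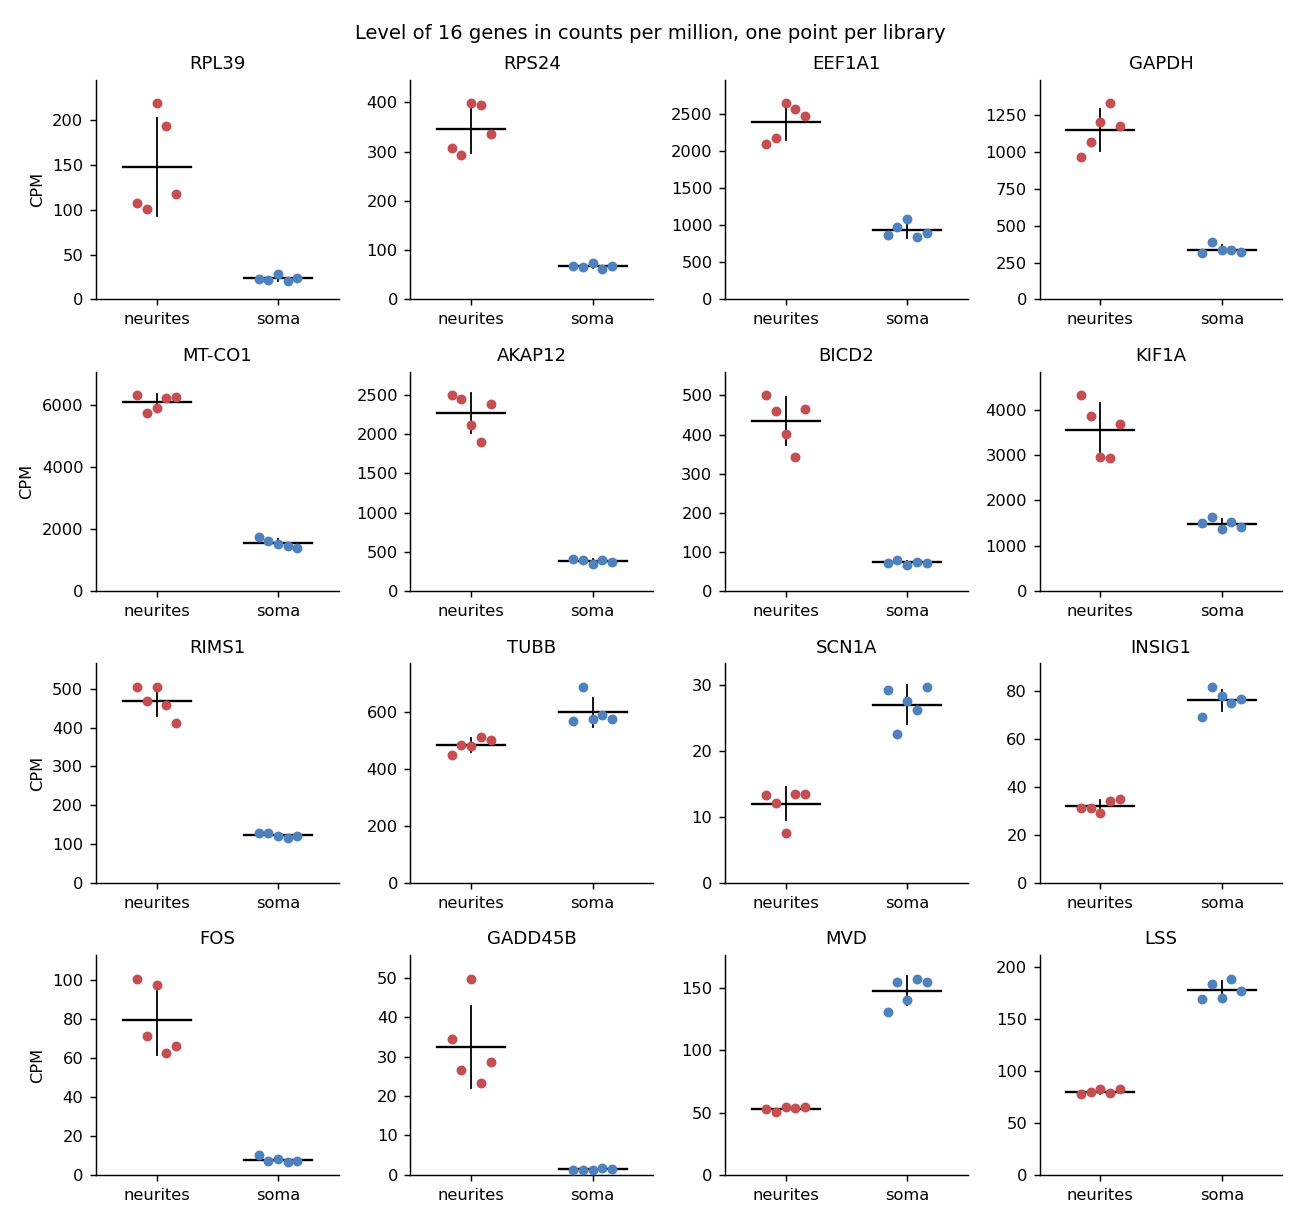
Level of 16 genes in counts per 1000000 (CPM, TMM-scaled, axes from 0) in each of 5 neurite libraries (left) and 5 soma libraries (right), with the mean and SD as black lines. RPL39, RPS24, EEF1A1, GAPDH, MT-CO1, AKAP12, BICD2, KIF1A, RIMS1, FOS and GADD45B lay higher in every neurite library than in any soma library, and TUBB, SCN1A, INSIG1, MVD and LSS lay lower.

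Mitochondrial transcripts were also higher in neurites. Mitochondria move into axons on kinesin and carry their own genome, so their RNAs leave the cell body with them. All 13 mitochondrially encoded protein genes were higher with no overlap between the fractions, with a median log2 ratio of 1.77 (1.79 above the median of all genes with library sizes), and all 22 mitochondrial tRNA genes were higher, with a median of 1.86. MT-CO1, a subunit of cytochrome c oxidase, measured 6303, 5738, 5883, 6207 and 6242 CPM in neurites, against 1732, 1613, 1508, 1457 and 1401 CPM in soma. Its ratio was 1.98 ± 0.11 (edgeR adjusted p = 2.79e-14). MT-ND1, of complex I, had a ratio of 2.04 ± 0.12, and MT-ND6, the protein encoded on the light strand, 1.56 ± 0.11. The rRNAs MT-RNR1 and MT-RNR2 had ratios of 2.37 ± 0.15 and 2.35 ± 0.15. Mitochondrial rRNA made up 1.41 ± 0.12% of the counts in neurites and 0.43 ± 0.07% in soma (SD, n = 5 each). That difference had an exact 2-sided permutation p of 0.00794, the smallest that 5 against 5 libraries allow, and an adjusted p of 0.00907 over 8 shares.

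Nuclear genes of the respiratory chain moved in part. Of 40 genes of complexes II to V, 25 were higher and 1, UQCRC1, was lower, with a median of 0.50 (-0.13 with library sizes). COX6A1, a subunit of cytochrome c oxidase, measured 82.0, 68.7, 197, 151 and 99.6 CPM in neurites, against 25.2, 27.5, 30.1, 24.8 and 27.2 CPM in soma. Its ratio was 2.13 ± 0.18, and neurite samples 4 and 5 were again the highest. ATP5ME, of ATP synthase, had a ratio of 1.42 ± 0.15, COX8A of 1.193 ± 0.12 and UQCRH, of complex III, of 1.167 ± 0.12. Of 38 nuclear genes of complex I, 19 were higher and 4 lower, and NDUFA3 led them at 1.194 ± 0.15, while NDUFA13 was lower at -0.83 ± 0.15. Mitochondrial ribosomal proteins had 16 of 75 genes higher and 15 lower, near the shares of all genes, 24.1% higher and 22.3% lower. MRPL22 was higher at 0.74 ± 0.11 and MRPS5 lower at -0.68 ± 0.13. Both groups moved with neurite samples 4 and 5: without them, complex I had 15 genes higher and 9 lower, and mitochondrial ribosomal proteins had 8 higher and 28 lower. Without neurite sample 1, 8 mitochondrial ribosomal protein genes were lower, and without neurite sample 2, 9 were. Mitochondrial import and chaperone genes had 9 of 32 higher and 6 lower (4 and 8 without neurite samples 4 and 5), and TOMM7, of the import pore of the outer membrane, was higher at 1.32 ± 0.09.

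Small noncoding RNAs differed in direction. Of 14 tested on a list of those in known machines, 6 were higher and 5 lower, and 4 and 7 without neurite samples 4 and 5. 7SL RNA, the RNA of the signal recognition particle that docks ribosomes at the endoplasmic reticulum, was the most abundant transcript of the neurite fraction by counts. The genes RN7SL1 and RN7SL2 together took 14.04, 12.5, 29.5, 22.0 and 11.1% of the counts in neurite samples 1, 2, 4, 5 and 6, against 0.96, 1.53, 1.69, 1.46 and 1.1604% in soma (exact permutation adjusted p = 0.00907). The fractions did not overlap, and RN7SL1 made up all or nearly all of the share in every library. The many 7SL copies share sequence, and all genes named RN7SL together took 17.2 to 45.7% in neurites and 1.51 to 2.56% in soma. RN7SL1 had a log2 ratio of 4.46 ± 0.48. The protein partners of 7SL did not follow it to that extent: SRP14 was higher at 0.61 ± 0.08 (-0.03 with library sizes) and SRP9 at 0.35 ± 0.07 (-0.27 with library sizes), whereas SRP54 at -0.07 ± 0.07, SRP72 at -0.02 ± 0.05 and SRP19 at -0.16 ± 0.08 did not pass the test.

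Among other small RNAs, the Y RNAs, partners of the Ro protein, were higher: RNY1 measured 74.997, 90.5, 186, 147 and 113 CPM in neurites, against 35.9, 34.9, 32.3, 32.6 and 31.1 CPM in soma, a ratio of 1.85 ± 0.24. RNY4 had a ratio of 2.08 ± 0.35 and RNY3 of 1.42 ± 0.32, and the RNY3 values of the fractions overlapped. VTRNA1-3, a vault RNA, was higher at 0.85 ± 0.20, and RMRP, an RNA of the RNase that processes ribosomal RNA, was higher at 0.61 ± 0.23, with -0.045 from library sizes. The RMRP call was lost without neurite sample 4, neurite sample 5 or soma sample 1, 5 or 6 and in DESeq2, and both it and that of VTRNA1-3 were lost with neurite samples 4 and 5 left out together. Spliceosomal RNAs were lower: of 77 genes of type snRNA, 33 were lower and 1 was higher. RNU4-1, of the U4 particle, measured 7.15, 15.4, 28.5, 22.2 and 21.9 CPM in neurites, against 33.9, 52.0, 46.6, 44.6 and 33.5 CPM in soma, a ratio of -1.21 ± 0.23. RNU5A-1 and RNU5B-1 had ratios of -1.56 ± 0.31 and -1.31 ± 0.25, and in both genes neurite sample 4 lay within the range of the soma samples. Of 105 small nucleolar RNA genes, which guide the chemical modification of ribosomal RNA, 50 were lower and 1 was higher. SNORA53 measured 1.07, 1.51, 5.26, 2.71 and 2.37 CPM in neurites, against 9.43, 20.5, 15.7, 14.3 and 9.08 CPM in soma, a ratio of -2.57 ± 0.39. Without neurite samples 4 and 5, 65 small nucleolar RNA genes and 46 snRNA genes were lower, and 0 and 1 were higher.

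Long noncoding RNAs did not share a direction. Genes of this class took 2.67 ± 0.36% of counts in neurites and 4.18 ± 0.92% in soma (exact permutation adjusted p = 0.00907), and 492 of 3731 genes were higher and 526 lower. Both directions were called less often than over all genes, where 24.1% were higher and 22.3% lower. With 7SL and ribosomal RNA taken out of the total, the long noncoding share of counts was 0.55 percentage points lower in neurites (adjusted p = 0.476). A list of nuclear-retained noncoding RNAs took 0.217 ± 0.024% of counts in neurites and 0.373 ± 0.029% in soma (the same adjusted p), but 4 of its 11 tested genes were higher and 3 lower after TMM scaling. With 7SL and ribosomal RNA taken out of the total, the difference of that share was -0.0803 percentage points, against -0.156 over all counts. MIAT, a nuclear RNA of neurons, measured 249, 302, 241, 288 and 300 CPM in neurites, against 506, 427, 524, 508 and 505 CPM in soma, a ratio of -0.84 ± 0.08. MALAT1, of nuclear speckles, had 179, 188, 177, 195 and 192 CPM in neurites, against 144, 141, 165, 135 and 142 CPM in soma, a ratio of 0.36 ± 0.07 that was -0.26 with library sizes. RMST, a noncoding RNA of neurogenesis, was higher at 1.27 ± 0.10. Protein-coding genes took 63.5 ± 11.8% of the counts in neurites and 86.1 ± 1.107% in soma (adjusted p = 0.00907). That difference was -0.03 percentage points (adjusted p = 0.984) with 7SL and ribosomal RNA taken out of the total.

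**Figure D2:**
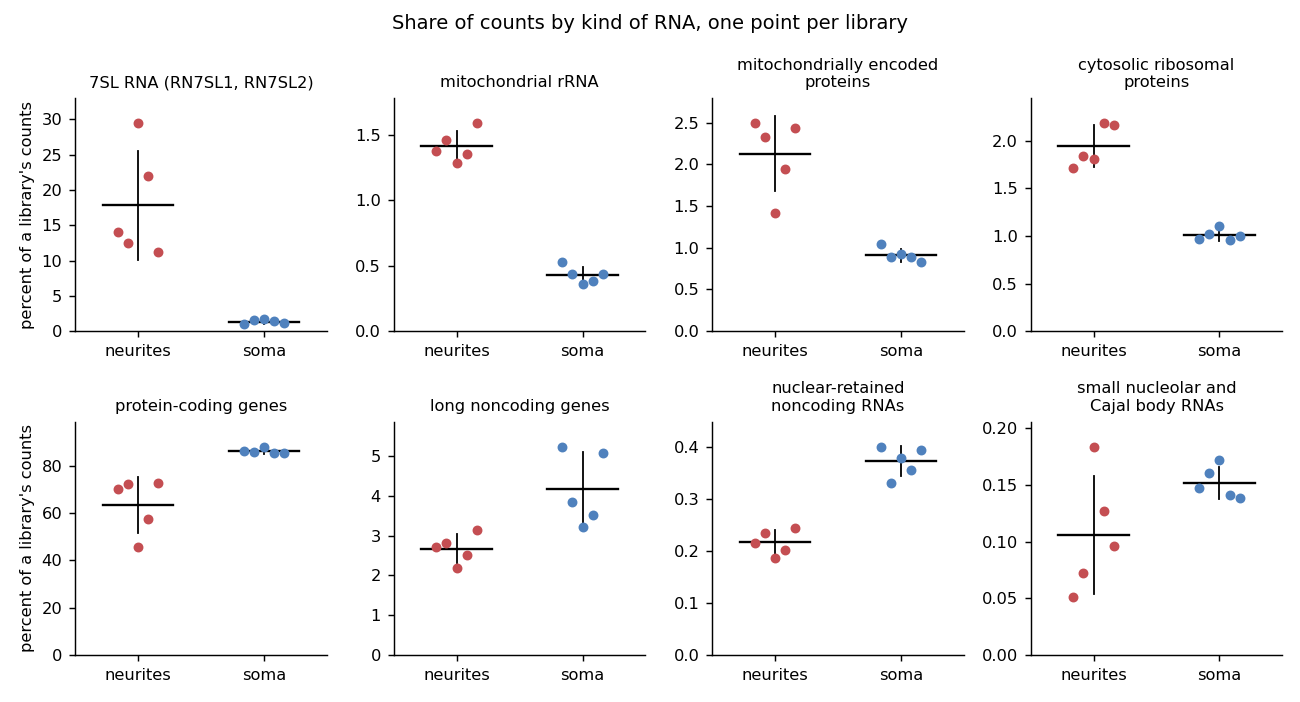
Percent of a library's counts on 8 kinds of RNA (axes from 0), with a point for each of 5 neurite libraries (left) and 5 soma libraries (right) and the mean and SD as black lines. Shares of 7SL RNA, mitochondrial rRNA, mitochondrially encoded proteins and ribosomal proteins were higher in every neurite library, those of protein-coding, long noncoding and nuclear-retained noncoding genes were lower, and that of small nucleolar and Cajal body RNAs overlapped.

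Cytoskeleton and transport lists held genes of both directions. AKAP12, an anchor of protein kinase A at the membrane and cytoskeleton, measured 2495, 2451, 2112, 1896 and 2378 CPM in neurites, against 406, 396, 344, 393 and 374 CPM in soma. Its ratio was 2.57 ± 0.08 (edgeR adjusted p = 2.29e-19). BICD2, an adaptor that couples dynein to its cargo and to RNA granules, measured 501, 461, 402, 344 and 465 CPM in neurites, against 72.8, 79.0, 68.2, 74.8 and 72.9 CPM in soma, a ratio of 2.56 ± 0.08. Of 26 transport adaptor genes, 12 were higher and 6 lower. Beside BICD2, the mitochondrial adaptor TRAK2 had a ratio of 1.73 ± 0.10, BICD1 of 1.222 ± 0.07 and HOOK3 of 0.96 ± 0.06, whereas the dynactin subunit DCTN1 was lower at -0.32 ± 0.06 and the mitochondrial GTPase RHOT2 at -0.64 ± 0.07.

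Of 40 motor genes, 8 were higher and 14 lower, with a median log2 ratio of -0.07. Over all genes 24.1% were higher and 22.3% lower. KIF1A and KIF5C, described next, were among the higher motor genes. KIF1A, the kinesin of synaptic vesicle precursors, measured 4321, 3857, 2948, 2933 and 3674 CPM in neurites, against 1496, 1644, 1378, 1519 and 1407 CPM in soma. Its ratio was 1.25 ± 0.10, and here neurite samples 4 and 5 were the lowest of the neurites. KIF5C, a conventional kinesin heavy chain, had a ratio of 0.88 ± 0.08, with 2591 ± 260 CPM in neurites and 1405 ± 43.85 CPM in soma. Microtubule-associated and growth cone genes had 13 of 33 higher and 4 lower. Among them were APC, a plus-end protein known to bind messages in protrusions, at 1.142 ± 0.08, MAP1A at 0.91 ± 0.08, MAP1B at 0.47 ± 0.08 and MAP2 at 0.44 ± 0.07, and the ratios of MAP1B and MAP2 were -0.13 and -0.15 with library sizes. MAP1B had the highest level by counts among nuclear protein-coding genes in neurites, at 7426 ± 676 CPM, against 5376 ± 263 CPM in soma. ANK2, the scaffold of the axon shaft, measured 3798 ± 499 CPM in neurites and 1717 ± 67.8 CPM in soma, a ratio of 1.145 ± 0.09.

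Intermediate filament genes had 3 of 8 higher and none lower: NES at 0.91 ± 0.07, NEFL at 0.70 ± 0.08 and NEFM at 0.27 ± 0.08, the last -0.33 with library sizes. Tubulins went the other way in 4 of 12 genes, with 2 higher, and in 9 genes, with 1 higher, when neurite samples 4 and 5 were left out. TUBB measured 449, 484, 483, 514 and 503 CPM in neurites, against 569, 690, 576, 593 and 578 CPM in soma, a ratio of -0.30 ± 0.07. TUBB3, a marker of neurons, had -0.32 ± 0.07 and TUBB4A -0.51 ± 0.08, while TUBB6 at low level had 1.155 ± 0.13. Among 33 actin and actin-regulating genes, 14 were higher and 6 lower. The thymosins TMSB10 and TMSB4X, which bind actin monomers, had ratios of 1.09 ± 0.14 and 1.03 ± 0.08, and FLNC, an actin cross-linker, 2.68 ± 0.11. ACTB, a message known to travel into axons, measured 1741, 1867, 1979, 1957 and 1892 CPM in neurites, against 1428, 1822, 1492, 1513 and 1443 CPM in soma. The fractions overlapped through soma sample 2, and the ratio of 0.29 ± 0.09 was -0.33 with library sizes. Of 38 RNA granule and transport protein genes, 10 were higher and 8 lower, near the shares of all genes (24.1% higher and 22.3% lower). STAU2, a double-stranded RNA-binding protein of transport granules, was higher at 0.73 ± 0.06 and ATXN2 at 0.71 ± 0.06, as was HNRNPA1, of another list, at 0.64 ± 0.06, and with library sizes these were 0.12, 0.09 and 0.02 and not called.

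Synaptic genes were divided, beside 24.1% of all genes higher and 22.3% lower. Of 20 active zone scaffold genes, 8 were higher and 5 lower, and 3 were lower without neurite sample 5. RIMS1, which places vesicles and calcium channels at release sites, measured 504.2, 468, 503.6, 457 and 411 CPM in neurites, against 129, 128, 122, 116 and 120 CPM in soma, a ratio of 1.93 ± 0.06 (edgeR adjusted p = 4.71e-19). RIMS2 had a ratio of 1.42 ± 0.07, the priming factor UNC13C 1.25 ± 0.09 and ERC2 0.92 ± 0.06. Of 40 synaptic vesicle and release genes, 7 were higher and 13 lower. SNCG was higher at 0.73 ± 0.15, with 171, 150, 366, 277 and 180 CPM in neurites, against 125, 135, 147, 134 and 141 CPM in soma. The calcium sensor SYT5 at -0.69 ± 0.06 and the vesicle glycoprotein SV2A at -0.52 ± 0.06 were lower. On the postsynaptic list, 7 of 44 genes were higher and 21 lower. The scaffolds DLG1 at 1.02 ± 0.06 and HOMER1 at 0.95 ± 0.05 were higher, and the AMPA receptor subunit GRIA2 at -0.80 ± 0.08 and the scaffold DLG2 at -0.73 ± 0.07 were lower.

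Genes of the cell surface were lower more often than higher in the lists examined. Of 26 voltage-gated sodium and calcium channel genes, 19 were lower and 2 higher, with a median log2 ratio of -0.39. SCN1A measured 13.3, 12.2, 7.62, 13.5 and 13.6 CPM in neurites, against 29.2, 22.5, 27.6, 26.2 and 29.7 CPM in soma, a ratio of -1.14 ± 0.11. SCN7A at -0.92 ± 0.09, the T-type channel CACNA1I at -0.92 ± 0.09, SCN2A at -0.71 ± 0.06 and SCN9A at -0.66 ± 0.07 were lower too. CACNA2D1, an auxiliary subunit of calcium channels, was higher at 0.30 ± 0.06, and -0.31 with library sizes. Of 46 axon guidance genes, 27 were lower and 10 higher (median -0.23). The netrin receptor UNC5D at -0.78 ± 0.06, the plexins PLXNB1 at -0.72 ± 0.07 and PLXNA3 at -0.71 ± 0.06, and the ligand SLIT2 at -0.55 ± 0.07 were lower. Of 39 adhesion genes, 19 were lower, among them CDH8 at -0.63 ± 0.05, and 5 were higher, among them CNTN2, an axonal contactin, at 1.98 ± 0.16 and PCDH11X at 0.83 ± 0.08. Of 37 potassium channel genes, 14 were lower and 10 higher, and the pacemaker channel HCN3 was lower at -0.92 ± 0.08. Without neurite samples 4 and 5, 10 potassium channel genes were lower and 11 higher.

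Of the 48 lists examined, cholesterol synthesis had the highest share of genes lower in neurites. The pathway runs from acetyl-CoA through mevalonate and squalene to cholesterol in the endoplasmic reticulum, and the SREBP factors switch its genes on when sterol is scarce. Of 20 genes, 19 were lower and none was higher, with a median log2 ratio of -0.75 (-1.37 with library sizes), and 18 showed no overlap between the fractions. PMVK was not called. At the mevalonate step, HMGCS1 had a ratio of -0.56 ± 0.05 and MVK of -1.14 ± 0.07. MVD, the decarboxylase that makes isopentenyl diphosphate, measured 52.7, 50.5, 54.3, 54.0 and 54.2 CPM in neurites, against 131, 155, 141, 158 and 155 CPM in soma. Neurite samples 4 and 5 did not stand apart here, and the ratio was -1.48 ± 0.06 (edgeR adjusted p = 3.56e-18). Further along, SQLE, the squalene oxidase, was lower at -0.79 ± 0.05, LSS, which closes the sterol rings, at -1.15 ± 0.05, HSD17B7 at -1.18 ± 0.12 and DHCR7, the last step, at -1.21 ± 0.07. LSS measured 77.3, 79.4, 82.6, 78.7 and 82.5 CPM in neurites, against 169, 184, 170, 188 and 177 CPM in soma.

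Of 21 genes of sterol control and lipid supply, 10 were lower and 2 higher. INSIG1, a sensor that retains SREBP and is itself its target, was lower at -1.24 ± 0.06, with 32.2 ± 2.37 CPM in neurites and 76.0 ± 4.52 CPM in soma. The sterol carrier STARD4 at -1.18 ± 0.11 and SREBF1 at -0.81 ± 0.08 were lower, and MYLIP, a sterol-induced ubiquitin ligase, was higher at 0.83 ± 0.12. Glycolysis genes had 8 of 17 lower and 2 higher. GAPDH was higher at 1.76 ± 0.10, with 965, 1070, 1206, 1333 and 1181 CPM in neurites, against 315, 387, 336, 337 and 320 CPM in soma, and shares sequence with many pseudogenes. ALDOC at -1.66 ± 0.20 and PFKP at -0.78 ± 0.11 were lower.

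**Figure D3:**
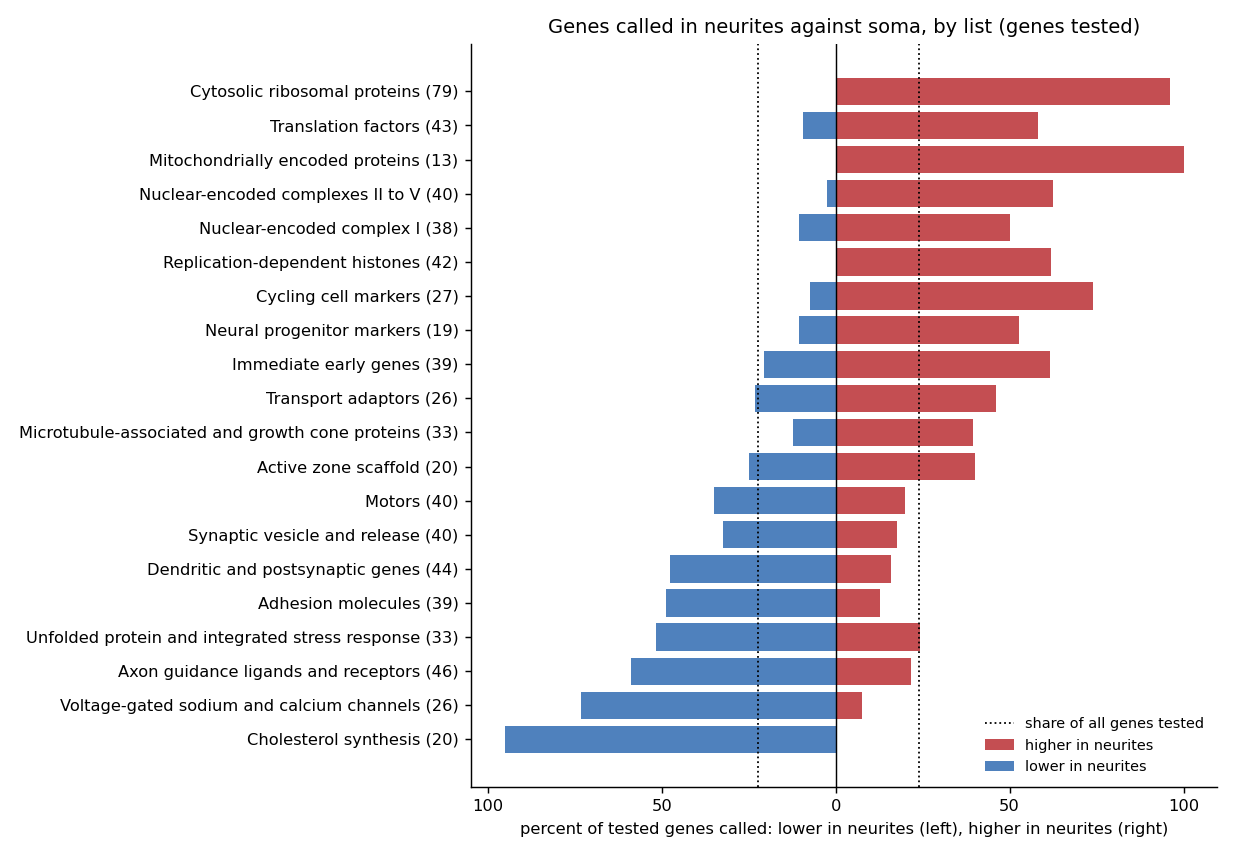
Percent of the tested genes of 20 lists called higher in neurites (right, red) or lower (left, blue), with the number tested in brackets and the share of all genes, 24.1% higher and 22.3% lower, as dotted lines. Ribosomal proteins and mitochondrially encoded proteins stand at the higher end and cholesterol synthesis at the lower one. On library sizes alone the medians of the translation factor, complex I, complex II to V, histone, progenitor, adaptor, microtubule-associated and active zone lists turned negative.

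Immediate early and stress genes held some of the highest ratios. These genes are switched on within minutes of activity, growth factors or injury, in the nucleus. Of 39 tested, 24 were higher and 8 lower, with a median of 0.70 (0.09 with library sizes). GADD45B, a stress-induced cofactor of demethylation, measured 34.4, 26.6, 49.7, 23.4 and 28.5 CPM in neurites, against 1.32, 1.28, 1.37, 1.67 and 1.44 CPM in soma. Every neurite value lay more than 10 times above every soma value, with a ratio of 4.49 ± 0.17 (edgeR adjusted p = 4.79e-18). FOS measured 101, 71.4, 97.6, 62.3 and 66.3 CPM in neurites, against 10.2, 7.22, 8.10, 6.51 and 7.22 CPM in soma, a ratio of 3.33 ± 0.14. NPAS4, a factor of neurons induced by calcium, had 4.21 ± 0.19, KLF10 3.25 ± 0.10 and KLF4 2.68 ± 0.34. KLF4 was near the floor, with means of 1.91 CPM in neurites and 0.29 CPM in soma. JUN was higher at 1.2404 ± 0.07 and ARC, a message known to travel into dendrites, at 0.70 ± 0.13. EGR1 at 0.61 ± 0.21 overlapped between the fractions. Its call was lost without neurite sample 1 or 2, without soma sample 4 or 6, in DESeq2 and with library sizes. Others were lower: NR4A3 at -0.59 ± 0.06, DUSP6, a phosphatase of ERK, at -0.59 ± 0.07 and VGF at -0.47 ± 0.07.

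The unfolded protein and integrated stress response list had 8 of 33 genes higher and 17 lower. DDIT3 was higher at 1.197 ± 0.14, whereas CHAC1 at -0.75 ± 0.11 and the asparagine synthetase ASNS at -1.11 ± 0.14, both targets of ATF4, were lower. Of 14 p53 targets, 3 were higher and 5 lower, beside 24.1% of all genes higher and 22.3% lower. Without neurite sample 1, neurite sample 2 or soma sample 1, 3 p53 targets were lower. The cell cycle inhibitor CDKN1A measured 11.4, 9.04, 13.1, 8.27 and 6.67 CPM in neurites, against 0.679, 0.535, 0.684, 0.904 and 0.722 CPM in soma, a ratio of 3.74 ± 0.20, and BBC3 had 1.1196 ± 0.10.

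Markers of cycling cells and neural progenitors were also higher. Of 27 cycling cell markers, 20 were higher and 2 lower (median 1.01, and 0.39 with library sizes), and their summed level was 136 to 160 CPM in neurites and 84.2 to 90.4 CPM in soma. HMGB2 measured 39.1, 33.0, 43.92, 26.9 and 26.9 CPM in neurites, against 3.08, 2.46, 3.91, 2.71 and 3.10 CPM in soma, a ratio of 3.46 ± 0.13. PLK1 had 1.74 ± 0.15 and ASPM 1.63 ± 0.25, while the replication genes MCM6 and MCM5 were lower at -0.38 ± 0.09 and -0.41 ± 0.15. The MCM5 call was lost without neurite sample 1, 2 or 6 and without soma sample 2. It was also lost when the 10 control libraries were fitted alone, with or without sample number as a block. Of 19 neural progenitor markers, 10 were higher and 2 lower, with summed levels of 692 to 796 CPM in neurites and 464 to 557 CPM in soma. PAX3 at 3.84 ± 0.35, ID1 at 3.36 ± 0.19 and GLI3 at 2.66 ± 0.18 were the highest. PAX3 was near the floor, with 5 to 29 counts in neurites and 1 to 4 in soma. SOX9 at -0.42 ± 0.14 was lower, a call lost without neurite sample 5 and without neurite samples 4 and 5 together. Of 10 mesenchymal and endothelial markers tested, 3 were higher and 1 lower. PECAM1 measured 12.96, 10.0, 9.98, 7.55 and 9.36 CPM in neurites, against 0.240, 0.267, 0.146, 0.407 and 0.255 CPM in soma, PDGFRB had a ratio of 3.56 ± 0.40 and COL1A1 of 2.695 ± 0.29, and ACTA2 was lower at -0.76 ± 0.22. PECAM1 had 53 to 145 counts in neurites and 3 to 9 in soma, and PDGFRB 4 to 23 and 1 to 6. Like PAX3, these 2 genes were too low in soma to pass the filter there. They were tested through other libraries, among them the neurite libraries where they were high. KLF4, TBR1 and COL1A1 were similarly low in soma. Genes that enter through the neurites add to the higher side of their lists, so those list counts lean that way through the filter. Of the 21 mesenchymal and endothelial markers, 10 had at most 10 counts in every library, among them COL3A1, LUM, DCN and CDH5, whereas COL6A1 had 1247 to 2944 counts in neurites and 5372 to 7083 in soma, and FN1 44 to 115 and 157 to 259 in the same order. Of the 32 cycling cell markers, 7 had at most 10 counts in every library, CDK1 among them, while MKI67 had 16 to 72 counts in neurites and 43 to 58 in soma, and TPX2 had 34 to 84 and 112 to 160. Marker counts given here are not scaled for depth, and the soma libraries were deeper. They show whether a marker was detected, and not its direction between the fractions. The summed level of mesenchymal and endothelial markers was 265 to 328 CPM in neurites and 285 to 333 CPM in soma. Whether a small number of other cells contributed to the immediate early, CDKN1A and AHNAK values was not tested.

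Of 4 pluripotent markers tested out of 15, 2 were higher, among them LIN28A at 1.35 ± 0.13 with 7.28 ± 0.47 CPM in neurites and 2.86 ± 0.47 CPM in soma. Of the 15, 11 had at most 10 counts in every library, POU5F1 and NANOG among them, while DNMT3B had 98 to 207 counts in neurites and 351.5 to 490 in soma. These counts, too, are not scaled for depth and show no direction. Of 8 astrocyte and oligodendrocyte markers tested, 1 was higher and 1 lower. Of 42 replication-dependent histone genes, 26 were higher and none was lower, with H2AC20 at 1.178 ± 0.12 and H2AC8 at 0.99 ± 0.09. Their median of 0.60 was -0.02 with library sizes. Without neurite samples 4 and 5, 21 histone genes were higher and 1 lower. Among 39 neuronal transcription factor genes, 12 were higher, led by TBR1 at 3.02 ± 0.33, and 15 lower, including BCL11A at -0.77 ± 0.07, LHX1 at -0.75 ± 0.07 and POU4F1 at -0.61 ± 0.06. TBR1 was near the floor, with means of 1.77 CPM in neurites and 0.20 CPM in soma.

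Among called protein-coding genes with a mean of at least 10 CPM and no overlap between the fractions, 1686 were higher and 2221 lower. Of all 14321 protein-coding genes tested, 2757 had every neurite library above every soma library and 2720 had every neurite library below. The 15 highest ratios included those of GADD45B, AHNAK, FNDC3B, HMGB2, FOS, KLF10, CDYL, ST18, ZNF730, PARM1, EYA1, TNC, SCLT1 and CCDC7. AHNAK, a very large scaffold protein, measured 44.6, 33.7, 45.9, 23.9 and 35.0 CPM in neurites, against 1.56, 0.963, 2.64, 1.81 and 1.231 CPM in soma, a ratio of 4.48 ± 0.19. CDYL, a chromodomain corepressor, measured 123, 106, 92.7, 86.9 and 81.9 CPM in neurites, against 13.1, 13.4, 14.9, 12.8 and 12.8 CPM in soma, a ratio of 2.88 ± 0.09. FNDC3B had 3.48 ± 0.13, the zinc finger factor ST18 2.87 ± 0.10, the matrix protein TNC 2.76 ± 0.13, the transcriptional coactivator EYA1 2.76 ± 0.11 and SCLT1, a protein of the centriole, 2.72 ± 0.08. The 15 lowest ratios held 4 cholesterol synthesis genes (MVD, DHCR7, LSS and MVK), INSIG1 and SCN1A. PDIA2, a disulfide isomerase of the endoplasmic reticulum, was the lowest at -1.76 ± 0.14, with 4.74, 5.62, 3.45, 4.56 and 6.24 CPM in neurites, against 14.5, 16.05, 15.4, 21.6 and 17.9 CPM in soma. WSB1, a substrate receptor of a ubiquitin ligase, measured 57.4, 64.1, 62.6, 66.0 and 67.1 CPM in neurites, against 142, 136, 170, 172 and 168 CPM in soma, a ratio of -1.31 ± 0.08. RHPN1 had -1.39 ± 0.10, YJEFN3 -1.30 ± 0.16, WDR90 -1.27 ± 0.12, NBEAL2 -1.24 ± 0.10, TNFRSF25 -1.22 ± 0.11 and the meiotic cohesin gene REC8 -1.22 ± 0.09. The highest ratios were larger in size than the lowest, and with a minimum of 1.5-fold 2114 genes were higher and 397 lower.

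GC content went with the direction. The median GC content of the longest annotated transcript (GENCODE 29) was 45.8% in the 3958 protein-coding genes called higher, 52.4% in the 3982 called lower and 48.5% in the 6381 not called. In the quintile of genes with the lowest GC content, 35.2% were higher and 20.1% lower, and in the quintile with the highest, 18.6% were higher and 38.6% lower. The median length of that transcript was 3957 bases in genes called higher and 3852 bases in those called lower, and the genes spanned a median of 50.6 kb and 27.9 kb. The part of GC content in single ratios was not tested.

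**Figure D4:**
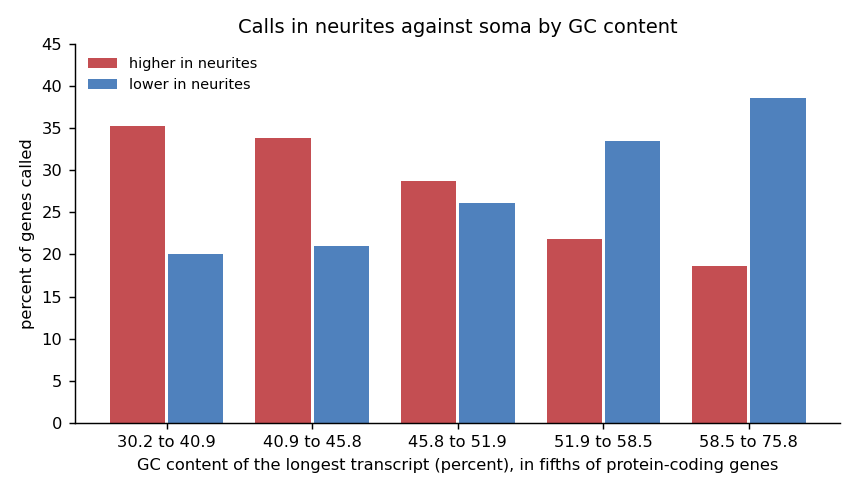
Percent of protein-coding genes called higher (red, left bars) or lower (blue, right bars) in neurites, in quintiles of the GC content of their longest transcript. The higher share falls from 35.2% in the lowest quintile to 18.6% in the highest, and the lower share climbs from 20.1% to 38.6%.

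The ratios were then set against those of the non-targeting controls of the hnRNPA1 experiment, 6 libraries per fraction, made with the same kit version and holding 8633883 to 14977395 counts in neurites and 10883331 to 19415973 in soma. In a joint fit of 29425 genes, whose ratios differ slightly from those above, the ratio was larger in the TDP43 controls for 432 genes (1.47%) and smaller for 468 (1.59%). In all 3.06% of genes were called. With library sizes 316 were larger and 1044 smaller, and in DESeq2 685 were larger and 421 smaller. The number of calls moved with single libraries: 566 were made without neurite sample 4, 575 without neurite sample 5, 488 without soma sample 1 and 514 without soma sample 6. Without neurite samples 4 and 5 together, 175 were larger and 196 smaller, among 32451 genes tested. Cells, dates and batches that differ between the experiments cannot be told apart from each other here. 7SL RNA was among the highest differences: the RN7SL1 ratio was 4.39 ± 0.31 in the TDP43 controls and 2.53 ± 0.26 in the hnRNPA1 controls, a difference of 1.86 ± 0.37 (edgeR adjusted p = 0.00364). At 10 CPM or more in the TDP43 control libraries, the other 4 highest were RN7SL4P, the pseudogene GUSBP15, MIR3648-1 and SNORD3B-2, all in families of near-identical copies. Without neurite samples 4 and 5 the RN7SL1 difference was 1.08 and no longer called (adjusted p = 0.0628), and that of SNORD3B-2 was 0.68 (adjusted p = 0.172). Histones were larger in 11 of 42 genes and smaller in none, and in 6 without those samples. H4C11 had 0.79 ± 0.18 in the TDP43 controls and -0.75 ± 0.17 in the hnRNPA1 controls. Ribosomal protein genes were larger in 4 of 79, RPSA with 1.77 ± 0.13 in the TDP43 controls and 0.81 ± 0.12 in the hnRNPA1 controls, and RPLP0 with 1.33 ± 0.13 in the TDP43 controls and 0.57 ± 0.12 in the hnRNPA1 controls. Without neurite samples 4 and 5, 1 ribosomal protein gene was larger and 1 smaller, and the RPLP0 difference, 0.57, was not called (adjusted p = 0.0945). CNTN2 also had the larger ratio in the TDP43 controls, 1.92 ± 0.18 against 0.62 ± 0.14.

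Smaller ratios in the TDP43 controls included 4 of 20 cholesterol synthesis genes, 5 of 22 genes of sterol control, 5 of 40 motors, 9 of 46 axon guidance genes and 4 of 8 intermediate filament genes, and no gene of these lists was larger. Without neurite samples 4 and 5 the smaller genes of these lists numbered 3, 1, 0, 6 and 3 in that order. MVD had -1.54 ± 0.10 in the TDP43 controls and -0.99 ± 0.08 in the hnRNPA1 controls, and STARD4 -1.25 ± 0.11 and -0.50 ± 0.09. The intermediate filament gene PRPH had 0.01 ± 0.27 in the TDP43 controls and 1.46 ± 0.15 in the hnRNPA1 controls. NEFM had 0.21 ± 0.10 in the TDP43 controls and 0.86 ± 0.09 in the hnRNPA1 controls. SV2C, a vesicle glycoprotein, had -0.03 ± 0.12 in the TDP43 controls and 1.51 ± 0.10 in the hnRNPA1 controls. The 5 lowest differences at 10 CPM or more in the TDP43 control libraries, a level that SV2C does not reach, were the mitochondrial pseudogenes MTCO3P12 and MTCO2P12, TCHH, TENM2, a teneurin of synapses (-0.22 ± 0.10 and 0.65 ± 0.09), and EFNB1, an ephrin (-0.55 ± 0.13 and 0.29 ± 0.11).

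**Figure D5:**
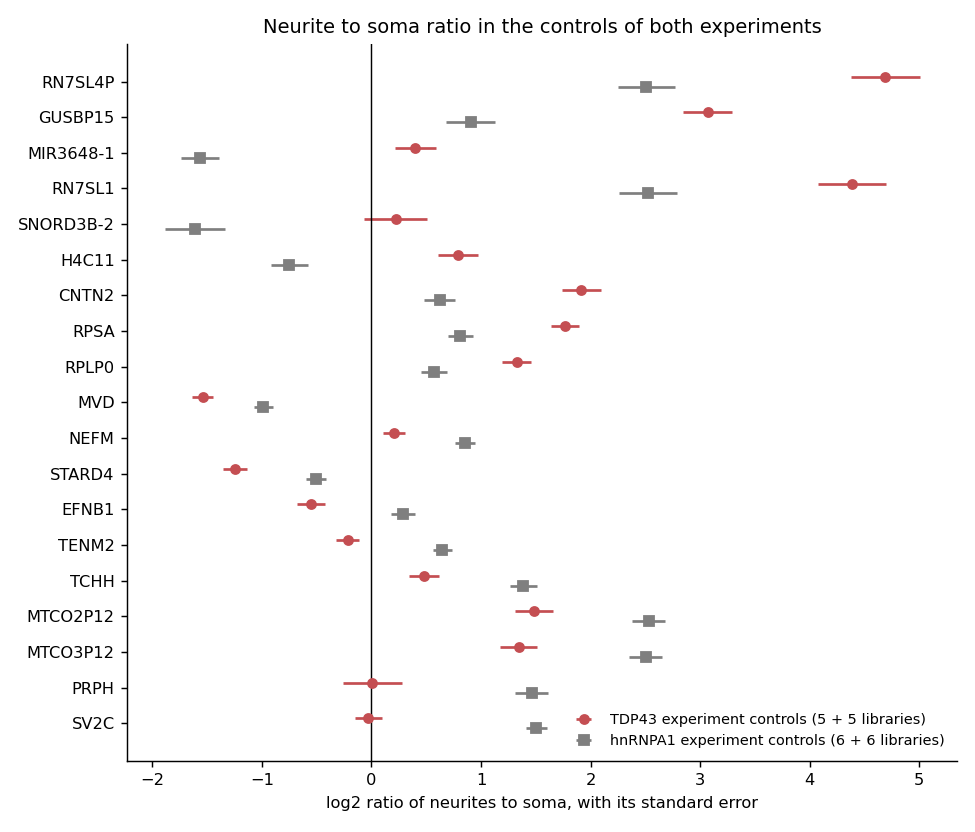
Log2 ratio of neurites to soma, with its standard error, of the genes with a called difference that are named in the text, in the TDP43 experiment controls (red circles) and the hnRNPA1 experiment controls (grey squares), sorted by the difference. The differences run from RN7SL4P, with 4.69 and 2.51, to SV2C, with -0.03 and 1.51.

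Against untreated cells, whose libraries came from version 2 of the kit while the TDP43 controls came from version 3, the ratio was larger for 7089 genes (24.1%) and smaller for 3959 (13.5%), with a median difference of 0.48 over all genes (0.92 with library sizes). Of these calls 64.2% were larger, against 84.5% with library sizes and 52.4% in DESeq2. The untreated libraries were also less deep, with 2541925 to 4346122 counts in neurites and 5212152 to 10519656 in soma. The depth, the kit version and the guide, cells and experiment cannot be told apart, and this comparison shares the TDP43 control libraries with the one before. Immediate early genes were larger in 34 of 40 and smaller in 1: FOS had 3.27 ± 0.20 in the TDP43 controls and -0.95 ± 0.32 in untreated cells, and GADD45B 4.43 ± 0.16 and 0.77 ± 0.43. AHNAK had 4.41 ± 0.19 in the TDP43 controls and -0.72 ± 0.33 in untreated cells, SIK1, a salt-inducible kinase, 1.86 ± 0.13 and -1.92 ± 0.31, and HMGB2 3.40 ± 0.13 and -0.24 ± 0.19. Ribosomal protein genes were smaller in 77 of 79 and larger in 1, and mitochondrially encoded protein genes were smaller in all 13. Among the lowest differences were those of AKAP6, an anchor of protein kinase A, with 1.09 ± 0.08 in the TDP43 controls and 4.28 ± 0.11 in untreated cells, MCF2L2 with 1.57 ± 0.08 and 4.50 ± 0.10, C4orf48, and APC with 1.08 ± 0.09 and 3.85 ± 0.12.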

How the data were processed

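RNA of neurite and soma fractions was sequenced after 10 ng of input with version 3 of a total RNA kit (version 2 for untreated cells), per the labels' protocols. The authors aligned reads to hg38 with STAR 2.7.11b and counted them with featureCounts of Subread 2.0.6, per the submitters' processing notes. The labels do not give the strand and multimapping settings. The deposited table holds expected counts per gene (81.1% of nonzero values were whole within 0.005), which were rounded. TDP43 knockdown soma sample 5, under the minimum of 100000 counts, was left out.

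Genes were filtered with filterByExpr, scaled by TMM and tested with edgeR 4.0.16 (R 4.3.3; limma 3.58.1, DESeq2 1.42.0), using the quasi-likelihood test over the 19 libraries of the TDP43 experiment and Benjamini-Hochberg adjustment over all genes. Differences between experiments came from a joint fit of all control and untreated libraries. Shares of 8 kinds of RNA in the counts were compared by exact permutation of the libraries. The genes, lists and pyrimidine run were chosen with earlier results of these data known: the 15 highest and 15 lowest ratios at 10 CPM or more with no overlap, up to 4 called genes per list and direction, and for differences the 5 highest and 5 lowest. Further members of the lists are given as examples chosen with their values seen. Leaving out neurite samples 4 and 5 was an alternative added after seeing the data. Y-linked and X-inactivation genes are not named, and some genes that the rule picks are not reported here. Sequences are from RefSeq, and gene types and GC content from GENCODE 29. No library pair agreed within sampling noise (chi-square per degree of freedom 3.43 to 122.7 over 20 pairs). On simulated data, 64.2, 83.6 and 100% of genes changed by 1.5, 2 and 4 times were called for neurites against soma (22014 genes), with 1.2% false calls, and 40.3, 52.2 and 75.8% for the difference from hnRNPA1 controls (29425 genes), with 4.27% false calls. For the difference from untreated cells these were 20.9, 40.3 and 59.1%, with 6.98% false calls. Each simulation changed 200 genes in random directions, whereas 46.5% of genes were called for neurites against soma in the data. The simulated fractions had no shift in composition like that of 7SL RNA. The simulated false calls therefore do not measure the error of the real calls. Counts bound the precision only as counting error, since no molecular identifiers were used here.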

Additional observations from a re-analysis of the deposited data

Results flagged for a closer look

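In 14 of 380 groups of 5 libraries, 1 library lay so far from the others that its gap, divided by the whole range, passed Dixon's critical value of 0.71, and chance flags about 1 in 20 groups. Among soma libraries, sample 4 was far for the protein-coding share of counts (88.0%, the others 85.3 to 86.1%, ratio 0.714), MRPL22 (12.7 CPM, the others 8.72 to 9.72, ratio 0.748), NES (157 CPM, the others 194 to 204, ratio 0.782), JUN (56.0 CPM, the others 70.2 to 74.7, ratio 0.76) and CDYL (14.9 CPM, the others 12.8 to 13.4, ratio 0.716). Soma sample 2 was far for MIAT (427 CPM, the others 505 to 524, ratio 0.803), ACTB (1822 CPM, the others 1428 to 1513, ratio 0.784), TUBB (690 CPM, the others 569 to 593, ratio 0.801) and NUP210 (93.3 CPM, the others 83.1 to 86.0, ratio 0.721). Among neurite libraries, sample 4 was far for RNY4 (33.9 CPM, the others 9.04 to 14.5, ratio 0.78), SCN1A (7.62 CPM, the others 12.2 to 13.6, ratio 0.764), DDIT3 (18.9 CPM, the others 11.2 to 13.4, ratio 0.719) and MCM5 (4.54 CPM, the others 2.86 to 3.28, ratio 0.751), and sample 6 for PARM1 (20.6 CPM, the others 25.2 to 26.5, ratio 0.783).

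The log2 ratio of neurites to soma differed from that of the hnRNPA1 controls, by the test of the difference itself, for the genes named in the report. The difference (TDP43 controls minus hnRNPA1 controls) was 1.86 for RN7SL1, 2.18 for RN7SL4P, 2.16 for GUSBP15, 1.96 for MIR3648-1, 1.83 for SNORD3B-2, 1.54 for H4C11, 1.29 for CNTN2, 0.96 for RPSA and 0.75 for RPLP0. It was -1.53 for SV2C, -1.46 for PRPH, -1.16 for MTCO3P12, -1.05 for MTCO2P12, -0.90 for TCHH, -0.87 for TENM2, -0.84 for EFNB1, -0.75 for STARD4, -0.65 for NEFM and -0.56 for MVD.

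The difference from untreated cells (TDP43 controls minus untreated) was 5.13 for AHNAK, 4.22 for FOS, 3.78 for SIK1, 3.65 for GADD45B and 3.64 for HMGB2. It was -3.19 for AKAP6, -2.93 for MCF2L2, -2.82 for C4orf48 and -2.77 for APC.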

How the results depend on the processing

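The count of 10232 genes called for neurites against soma lay within 1.5 times of itself in every alternative run but 2. With a minimum of 1.5-fold, 2511 were called (2114 higher, 397 lower), and with library sizes 16427 (1891 higher, 14536 lower). Leaving out 1 library gave 9289 to 10035 calls, 4937 to 5248 of them higher and 4352 to 4787 lower. With library sizes the ratios of 10 named genes turned: RMRP to -0.045, SRP14 to -0.034, SRP9 to -0.27, MALAT1 to -0.26, MAP1B to -0.13, MAP2 to -0.15, NEFM and ACTB to -0.33, TARDBP to -0.53 and CACNA2D1 to -0.31. The calls of 15 further genes were lost at 0.02 to 0.32: MRPL22, VTRNA1-3, KIF5C, MAP1A, NEFL, STAU2, ATXN2, HNRNPA1, SNCG, PCDH11X, MYLIP, EGR1, ARC, ATG5 and XPO1. Deviations of same-numbered libraries from the mean of their fraction had correlations of -0.074 to 0.051. With 5 libraries per fraction these cannot show whether same-numbered fractions came from the same wells, which the labels do not say. The replicate block left 8559 calls (4473 higher, 4086 lower), against 8901 from the same 10 libraries without it. Among the shares, the replicate block was an exact permutation within pairs, which cannot go below p = 0.0625 with 5 pairs. It gave an adjusted p of 0.0714 for differences of 0.936 percentage points (ribosomal proteins), 1.213 (mitochondrially encoded proteins), 16.5 (7SL RNA), -0.156 (nuclear-retained noncoding RNAs), -22.6 (protein-coding genes), -1.50 (long noncoding genes) and 0.983 (mitochondrial rRNA). The share of small nucleolar and Cajal body RNAs differed by 0.00966 points over protein-coding counts, 0.00693 without 7SL and ribosomal RNA and -0.0790 without neurite samples 4 and 5, and by -0.0656 to -0.0324 with 1 library left out. The protein-coding share differed by -0.0262 points without 7SL and ribosomal RNA. Without 7SL and ribosomal RNA in the total, the shares of ribosomal proteins and mitochondrially encoded proteins differed by 1.82 and 2.09 points. The long noncoding share differed by -0.599 over protein-coding counts, -0.549 without 7SL and ribosomal RNA and -1.29 without neurite samples 4 and 5. For the difference from hnRNPA1 controls, library sizes gave 1360 calls (316 larger, 1044 smaller), DESeq2 685 larger, no filter 720 larger, the replicate block 733 smaller, and leaving out neurite samples 4 and 5 371 calls (175 larger, 196 smaller). With 1 library left out there were 488 to 974 calls, 228 to 508 larger and 260 to 492 smaller. For the difference from untreated cells, library sizes gave 12483 larger and 2287 smaller. The cause of these shifts was not tested. The protein-coding share cannot be taken over protein-coding counts, nor the shares of 7SL and mitochondrial rRNA over totals without them. Depth limits genes below the expression filter, which were not tested.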

Other observations

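Lists of housekeeping machines were mixed in direction. Of 32 proteasome genes, 8 were higher in neurites and 7 lower, and without neurite samples 4 and 5 these were 3 and 9. PSMB1, a subunit of the core ring, measured 80.3, 72.9, 131, 105 and 64.6 CPM in neurites, against 38.5, 39.6, 44.0, 37.7 and 40.0 CPM in soma, a log2 ratio of 1.162 ± 0.12, while PSMD7, of the lid, was lower at -0.32 ± 0.07. Of 30 autophagy and lysosome genes, 5 were higher and 11 lower. ATG5, needed to form the autophagosome, was higher at 0.65 ± 0.08, and GRN, which encodes progranulin, was lower at -0.70 ± 0.09. Of 32 nuclear pore and import genes, 12 were higher and 7 lower, with the pore protein NUP54 at 1.08 ± 0.07 and the exportin gene XPO1 at 0.66 ± 0.07 against NUP210 at -0.42 ± 0.06. Of 36 genes of ER translocation and glycosylation, 9 were higher and 9 lower, and SSR4, of the translocon-associated complex, had 0.97 ± 0.10.

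Of 25 heat shock and cytosolic chaperone genes, 4 were higher, led by the cochaperone BAG3 at 1.34 ± 0.14, and 4 were lower, and without neurite samples 4 and 5 these were 3 and 7. Of 44 hnRNP and SR protein genes, 10 were higher and 11 lower, the lowest being SRRM3, a splicing activator of microexons, at -0.74 ± 0.06. Notch pathway genes had 5 of 18 higher and 8 lower, among them the glycosyltransferase RFNG at -0.88 ± 0.11 and the target HES4 at -0.88 ± 0.12. BMP and ID genes had 6 of 17 higher and 4 lower, with the BMP antagonist CHRD at -0.95 ± 0.11. Interferon-stimulated genes had 2 of 12 higher and 3 lower. The shares of all genes were 24.1% higher and 22.3% lower.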
